A study of Rattus norvegicus with 36 samples.

Results

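Microvillus and brush border structure was followed through 10 genes that were chosen by name: *Vil1*, *Pls1* and *Eps8* of the actin core, *Ezr* and *Myo1a* of the link to the membrane, and *Cdhr2*, *Cdhr5*, *Ush1c*, *Anks4b* and *Myo7b* of the adhesion complex between microvilli. The count table, of 24773 genes, holds a row for 9 of them. The expression of *Myo1a* was not analysed here. All 9 passed the filter on low counts in ileum, where 13026 genes were tested, and in colon, where 12906 were tested.

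Distal ileum and proximal colon of 18 male UCD-T2DM rats, a polygenic strain in which type 2 diabetes begins spontaneously, were measured by RNA-seq in 36 libraries, 1 per tissue and rat. Nondiabetic rats (ND, n = 6) were 70 days old. Rats with recent diabetes (D1M, n = 6) were 168 to 172 days old and had been diabetic for 22 to 23 days. Rats with longer diabetes (D3M, n = 6) were 172 to 173 days old and had been diabetic for 88 to 116 days. All rats shared the strain and no treatment is recorded. ND rats of this strain are prediabetic and obese rather than metabolically healthy, and they were younger than every diabetic rat, so age and diabetes cannot be told apart in comparisons with ND. D1M and D3M rats were of nearly the same age but also differed in the age at which diabetes began.

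The brush border is the carpet of microvilli on the luminal face of absorptive enterocytes. Each microvillus holds a bundle of actin filaments crosslinked by villin and plastin, which ezrin and class I myosins tie to the membrane. Protocadherins at the microvillus tips join neighbouring microvilli and pack them, anchored from inside by a complex of harmonin, Anks4b and myosin VIIb. Digestive enzymes and nutrient transporters sit in this membrane, and the structure is built as cells leave the crypt and climb the villus.

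Libraries held 12279059 to 21510043 counts in ileum and 10024041 to 18299050 in colon. The members themselves were well covered, with between 706 (*Eps8*, a colon library) and 93170 counts (*Cdhr5*, an ileum library). Levels are given as CPM, the count of a gene relative to the TMM-scaled total of its library within a tissue. They were not divided by transcript length, so levels are compared between libraries and not between genes. The tissue labels were checked with *Fabp6*, the ileal bile acid binding protein, and *Car1*, a carbonic anhydrase of colon epithelium. *Fabp6* stood at 12403 CPM or more in every ileum library and at 21.3 CPM or less in 17 of 18 colon libraries. The remaining one, from ND rat K4028, held it at 8706 CPM. *Car1* stood at 14997 CPM or more in every colon library, while the ileum libraries of ND rat K4040 and D3M rat P762 held 3616 and 1345 CPM against 130 CPM or less in the other 16. B cell transcripts (13 genes) were high, with a mean centred log2 CPM above 2, in the ileum libraries of 3 ND, 2 D1M and 1 D3M rats and in the colon libraries of 2 ND, 1 D1M and 2 D3M rats.

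The 250 bases before the annotated start of a gene were read for 8 of the 10 members from RefSeq on GRCr8, a later build than the rn6 of the counts. Windows of *Eps8* and *Myo7b* were not used here. Of 6 short motifs searched on both strands, the HNF4 site CAAAGTCCA was found in 0 of 8 windows (0.338% of all 33469 promoters in the table), its looser form CAAAGNCCA in 0 of 8 (1.53% of all) and the TATA box TATAAA in 0 of 8 (12.9% of all). CAAAG, the core of the former, was found in 4 of 8, those of *Pls1*, *Myo1a*, *Cdhr2* and *Anks4b* (48.2% of all). GGGCGG, the GC box, was found in those of *Vil1*, *Ezr*, *Cdhr2* and *Ush1c* (30.5% of all), and CATAAA, a site of the CDX factors of intestinal epithelium, in that of *Cdhr5* (11.4% of all). These letters are a description and show no binding. The windows of *Vil1*, *Ezr*, *Cdhr2* and *Ush1c* ended at the outermost start of the RefSeq gene and that of *Cdhr5* 92 bases inside it. Those of *Pls1*, *Myo1a* and *Anks4b* lay 76913, 4052 and 44274 bases inside the annotated gene, and whether they precede a start that is used in intestine was not tested. Over the other 5 windows CAAAG was found in 1, that of *Cdhr2*, and GGGCGG in 4. Shown are 3 of these 5, which hold between them the 3 motifs found, with motifs in capitals, 5′ to 3′ on the strand of the gene: *Vil1* (chr9:83439998-83440247, plus strand), *Cdhr2* (chr17:9917699-9917948, minus strand, with GGGCGG as its reverse complement) and *Cdhr5* (chr1:205811093-205811342, minus strand).
Vil1: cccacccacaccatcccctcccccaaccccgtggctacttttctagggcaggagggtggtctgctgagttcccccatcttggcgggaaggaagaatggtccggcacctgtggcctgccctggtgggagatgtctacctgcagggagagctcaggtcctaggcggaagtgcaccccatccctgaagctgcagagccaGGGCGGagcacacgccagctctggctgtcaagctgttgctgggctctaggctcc
Cdhr2: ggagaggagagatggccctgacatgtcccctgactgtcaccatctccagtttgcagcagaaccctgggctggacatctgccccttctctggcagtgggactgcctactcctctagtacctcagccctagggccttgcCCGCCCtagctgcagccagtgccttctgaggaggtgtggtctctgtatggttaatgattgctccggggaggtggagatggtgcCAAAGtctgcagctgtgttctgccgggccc
Cdhr5: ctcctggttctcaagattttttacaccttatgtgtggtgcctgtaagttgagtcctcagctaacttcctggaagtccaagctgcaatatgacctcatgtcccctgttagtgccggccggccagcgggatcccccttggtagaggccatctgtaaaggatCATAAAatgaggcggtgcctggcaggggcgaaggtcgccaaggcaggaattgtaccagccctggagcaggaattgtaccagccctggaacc

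In ileum, 7 of the 9 members were higher in D3M than in ND rats at FDR < 0.05 in edgeR, and 0 were lower. They were the actin bundlers *Vil1* and *Pls1*, the membrane linker *Ezr*, the protocadherins *Cdhr2* and *Cdhr5*, the scaffold *Anks4b* and the motor *Myo7b*, with log2 fold changes from 0.57 to 0.81. *Eps8* and *Ush1c* did not pass, with log2 fold changes of 0.43 and 0.33. In this comparison 12.5% of all genes tested were called in either direction and 8.31% were called higher. The members were chosen with earlier results of these data known, so these shares are a reference and not a test. The median log2 fold change was 0.67 over the 9 members and -0.08 over all genes tested. In whole tissue, more enterocytes and more RNA per enterocyte cannot be told apart.

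*Vil1* (ENSRNOG00000015408, chromosome 9 of rn6, 81689802 to 81717621, plus strand) encodes villin, which bundles and severs actin filaments. Its ileal level was 2012 to 3002 CPM in ND (median 2544), 2659 to 3708 CPM in D1M (median 2896) and 3513 to 4544 CPM in D3M rats (median 4193). Every D3M rat lay above every ND rat, while the highest D1M rat, K3987, lay above the lowest D3M rat, K3959. Over ND rats the log2 fold change of D3M was 0.70 (SE 0.13, FDR 0.0045), and that of D3M over D1M 0.47 (SE 0.12, FDR 0.0451). The 3′ end of the gene overlaps *Usp37* on the opposite strand over 746 bases, and *Usp37* had a median of 459 counts in ileum.

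*Pls1* (ENSRNOG00000009945, chromosome 8, 103557364 to 103608913, minus strand) encodes plastin 1, the second crosslinker of the core bundle. It ranged over 750 to 1375 CPM in ND (median 1007), 1070 to 1340 CPM in D1M (median 1185) and 1363 to 2411 CPM in D3M ileum (median 2005). D3M rats did not overlap D1M rats, and of ND rats only K4040 (1375 CPM) lay above the lowest D3M rat, K3959 (1363 CPM). Its log2 fold change was 0.81 against ND (SE 0.16, FDR 0.0049) and 0.66 against D1M rats (SE 0.14, FDR 0.0255).

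*Eps8* (ENSRNOG00000007047, chromosome 4, 171475567 to 171591882, minus strand) encodes an actin capping and bundling protein of the microvillus tip. Ileal levels were 107 to 203 CPM in ND (median 139), 123 to 189 CPM in D1M (median 161) and 174 to 317 CPM in D3M rats (median 222), and all groups overlapped. Its log2 fold change did not pass against ND (0.43, SE 0.19, FDR 0.144) or D1M rats (0.46, SE 0.16, FDR 0.13).

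*Ezr* (ENSRNOG00000018524, chromosome 1, 47287874 to 47331412, minus strand) encodes ezrin, which links actin to membrane proteins when phosphorylated. In ileum it stood at 609 to 1012 CPM in ND (median 920), 824 to 1206 CPM in D1M (median 895) and 1214 to 1504 CPM in D3M rats (median 1499). All D3M rats lay above all ND and all D1M rats. Of the D3M rats, 5 lay within 1417 to 1504 CPM and K3959 below them. For ezrin the log2 fold change was 0.67 against ND (SE 0.15, FDR 0.0095) and 0.57 against D1M rats (SE 0.13, FDR 0.0337).

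**Figure D1:**
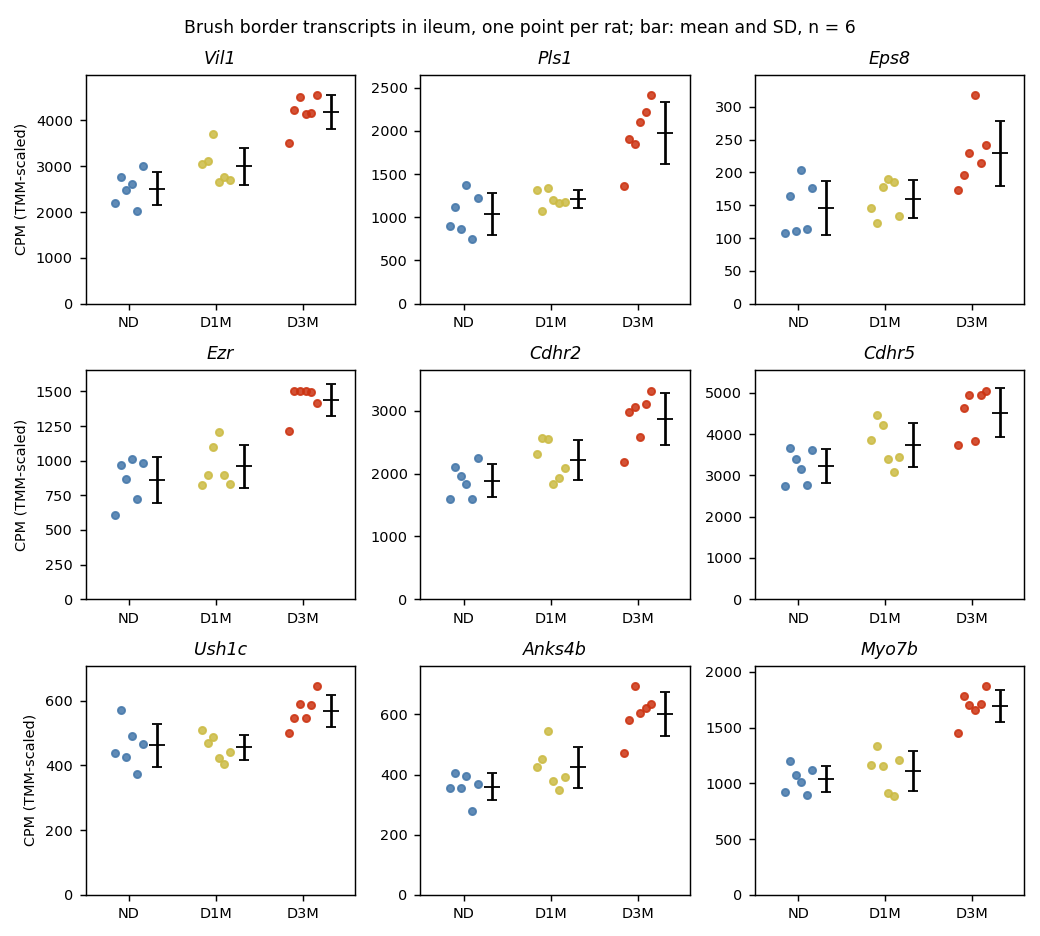
Ileal levels of the 9 transcripts in CPM (vertical axes, each from 0), with 1 point per rat in ND, D1M and D3M rats and a bar at the mean ± SD (n = 6). *Vil1* lies at 3513 to 4544 CPM in D3M rats, above all ND rats, and for each transcript the lowest D3M point is rat K3959.

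Of the adhesion complex, *Cdhr2* (ENSRNOG00000017917, chromosome 17, 10415123 to 10439691, minus strand) and *Cdhr5* (ENSRNOG00000017762, chromosome 1, 214255110 to 214263581, minus strand) encode the protocadherins that meet between microvillus tips. *Cdhr2* ranged over 1588 to 2244 CPM in ND (median 1903), 1834 to 2569 CPM in D1M (median 2197) and 2186 to 3315 CPM in D3M ileum (median 3017). The ranges of D3M and ND overlapped through K3959 only. Its log2 fold change was 0.66 against ND (SE 0.15, FDR 0.00996), and 0.40 against D1M rats, which did not pass (SE 0.13, FDR 0.109). *Cdhr5* ranged over 2741 to 3661 CPM in ND (median 3270), 3089 to 4459 CPM in D1M (median 3655) and 3736 to 5050 CPM in D3M ileum (median 4794). D3M rats lay above all ND rats and overlapped D1M rats. The log2 fold change of *Cdhr5* was 0.57 against ND (SE 0.14, FDR 0.0141) and 0.30 against D1M rats, which did not pass (SE 0.12, FDR 0.176). Against ND rats *Cdhr5* did not pass in 4 of 14 alternatives other than leaving 1 library out, with FDR up to 0.187. Among these was the fit without flow cell 2 (FDR 0.0568). With 1 library left out it did not pass in 1 of 18 fits, that without D1M rat K3986 (FDR 0.0555), which is in neither group but in the same model. In ileum the levels of *Cdhr2* and *Cdhr5* had the highest correlation of any pair of members (r = 0.98 of log2 CPM over 18 libraries).

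The cytoplasmic side of that complex rests on harmonin, the scaffold encoded by *Ush1c* (ENSRNOG00000021149, chromosome 1, 102207096 to 102255459, minus strand). *Ush1c* ranged over 375 to 572 CPM in ND (median 452), 404 to 508 CPM in D1M (median 456) and 501 to 644 CPM in D3M ileum (median 566), with overlap between all groups. Its log2 fold change was 0.33 against ND (SE 0.11, FDR 0.0574) and 0.33 against D1M rats (SE 0.10, FDR 0.08), and neither passed. Against ND rats *Ush1c* did not pass in 8 of 14 alternatives other than leaving 1 library out, with FDR up to 0.559, and passed in 6. The latter included RLE size factors (FDR 0.0408), a filter of 1 CPM in 6 libraries (0.0393), DESeq2 (0.0129) and voom (0.0317). With 1 library left out it passed in 2 of 18 fits, without ND rat K4037 (FDR 0.0197) and without D3M rat K3959 (FDR 0.0307).

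*Anks4b* (ENSRNOG00000046181, chromosome 1, 189940291 to 189942112, plus strand) encodes an ankyrin repeat protein that binds harmonin and myosin VIIb. Its level was 280 to 406 CPM in ND (median 362), 348 to 544 CPM in D1M (median 409) and 473 to 693 CPM in D3M ileum (median 614). D3M rats did not overlap ND rats, while the highest D1M rat, K3987, lay above K3959. The log2 fold change was 0.74 against ND (SE 0.14, FDR 0.00487) and 0.50 against D1M rats (SE 0.12, FDR 0.0436).

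*Myo7b* (ENSRNOG00000015035, chromosome 18, 24742329 to 24823858, minus strand) encodes the motor that carries the complex toward the tips. It stood at 894 to 1201 CPM in ND (median 1041), 888 to 1337 CPM in D1M (median 1159) and 1450 to 1869 CPM in D3M ileum (median 1706). Every D3M rat lay above all 12 other rats. The log2 fold change of 0.81 against ND (SE 0.12, FDR 0.00179) held rank 30 by p among 13026 genes, and that of 0.65 against D1M rats (SE 0.11, FDR 0.0129) rank 11. The row of *Myo7b* overlaps that of *Lims2* on the opposite strand over 3831 bases. *Lims2* had a median of 488 counts in ileum and 1170 in colon.

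Between D3M and D1M rats, 5 of 9 members were higher in ileum (*Vil1*, *Pls1*, *Ezr*, *Anks4b* and *Myo7b*) and 0 lower, where 2.22% of all genes were called in either direction and 1.93% were called higher. The median log2 fold change was 0.47 over the members and -0.04 over all genes tested. This comparison shares its D3M libraries with the one against ND rats. Every member had a positive log2 fold change, from 0.30 (*Cdhr5*) to 0.66 (*Pls1*). The count of 5 became 0 without D1M rat K3988 or K3989, 1 without D1M rat K3978 or K3990 or D3M rat K3961 or P780, and 3 without ND rat K4037 or K4038 or D3M rat K3977, K3980 or P762. It became 8 without D3M rat K3959. *Vil1* and *Anks4b* were lost in each fit with 3 or fewer, and the 1 member left in the fits with 1 was *Myo7b*. Calls over all genes also varied widely when 1 library was left out, with their range in the last section. The counts of members passing are therefore not read as a result about the members or about single rats. The median over the members stayed between 0.44 and 0.55 in these fits.

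Between D1M and ND rats, 0 of 9 members passed in ileum, where 0.0154% of all genes were called. Log2 fold changes ran from -0.04 (*Eps8*) to 0.27 (*Cdhr5*), with a median of 0.16 against -0.03 over all genes. Of the members, *Cdhr5* alone had an unadjusted p under 0.05 (FDR 0.595 in edgeR). Over all genes, 1087 of 13026 did (8.34%). DESeq2 and voom also called 0 members, and their calls over all genes are not given here for this comparison. Within 2 SE, the fold of *Vil1* lay between 0.993 and 1.39 and that of *Ush1c* between 0.87 and 1.15.

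**Figure D2:**
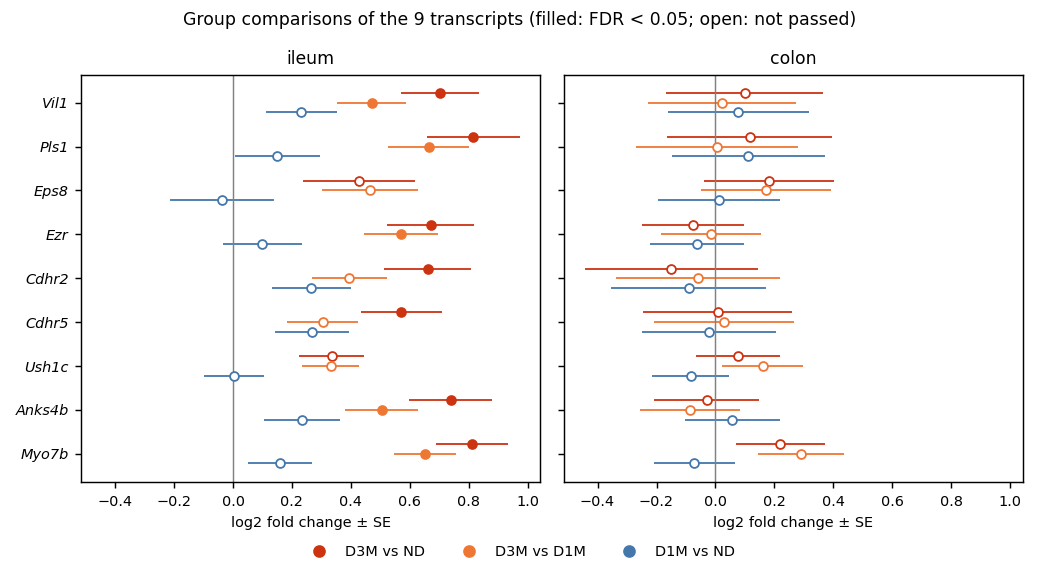
Log2 fold changes ± SE (horizontal axes) of the 9 transcripts in 3 comparisons, for ileum and colon, with filled points at FDR < 0.05 in edgeR. Ileal D3M points lie between 0.30 and 0.81, while all colon points are open and lie between -0.15 and 0.29.

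The 3 flow cells did not hold equal numbers of each group, with 4, 0 and 2 D3M ileum libraries and 1, 3 and 2 ND ileum libraries in flow cells 1, 2 and 3. Within flow cell 1 (4 D3M rats, 1 ND rat) all 9 members had a higher mean log2 CPM in D3M, by a median of 0.44, and within flow cell 3 (2 rats each) all 9 did, by a median of 0.86. For D3M against D1M rats the medians were 0.43 in flow cell 1 (4 and 3 rats) and 0.61 in flow cell 3 (2 rats each), with 9 of 9 members higher in both. In flow cell 3, B cell transcripts had a mean centred log2 CPM of 4.04 in ND rat K4028 and 3.31 in D1M rat K3990. There, ND rat K4040 and D3M rat P762 held *Car1* at 3616 and 1345 CPM. In flow cell 1, D3M rat K3959 had a B cell value of 2.89. The members were correlated, so 9 of 9 is not 9 separate observations. The share of all genes higher within a flow cell was not computed, and no test was made within one.

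Cell type markers were read beside the members. Between D3M and ND ileum, 12.5% of all genes were called in either direction and 8.31% were called higher. Of 10 general epithelium genes, 3 were higher and 0 lower in D3M than in ND ileum (median log2 fold change 0.30), and their summed level was 12259 to 17243 CPM in ND, 15476 to 17658 CPM in D1M and 17466 to 23284 CPM in D3M rats. The summed level of the 9 members was 9500 to 13217 CPM in ND, 11661 to 15277 CPM in D1M and 14609 to 20127 CPM in D3M rats. With the epithelium score as a covariate, log2 fold changes of all 9 members stayed positive against ND rats, the median was 0.41, and 1 of 9, *Myo7b*, passed. Against D1M rats 0 of 9 then passed, with a median of 0.30. Calls over all genes fell in both of these fits as well, with numbers in the last section.

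B cell transcripts, none of which passed in this comparison (0 of 13), summed to 15.4 to 994 CPM in ND, 10.2 to 671 CPM in D1M and 7.35 to 343 CPM in D3M ileum. *Ms4a1* and *Cr2* of this list had 0 counts in at least 1 ileum library of every group, and the counts of its other genes by library are not given here. K3959, which was the lowest D3M rat for all 9 members, was the 1 D3M rat with a high B cell score (2.89). With that score as a covariate 8 of 9 members passed against ND and 5 of 9 against D1M rats. Without the 6 ileum libraries with a score above 2, *Pls1* and *Myo7b* passed against ND rats (median over 9 members 0.59) and 5 of 9 members passed against D1M rats (median 0.52). That alternative was chosen after seeing the data. With only the ND and D3M libraries in the model, *Anks4b* and *Myo7b* passed (median 0.67). Against ND rats, calls over all genes also fell in the last 2 of these alternatives, with numbers in the last section. They are not given here for the covariate fit, nor against D1M rats without the 6 libraries. The counts of members passing are therefore not read as a result about the members.

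Crypt and stem cell genes summed to 349 to 750 CPM in ND, 366 to 720 CPM in D1M and 240 to 484 CPM in D3M ileum, with 0 of 7 passing and a median log2 fold change of -0.51. Smooth muscle genes (0 of 9 passing, median -0.12) summed to 1807 to 7897 CPM in ND and 1592 to 8426 CPM in D3M ileum. Of 7 fibroblast genes 1 was higher and 2 lower, with sums of 659 to 1188 CPM in ND and 580 to 819 CPM in D3M ileum. The part of these cell types in the levels of the brush border transcripts was not tested beyond these fits.

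Over the 18 ileum libraries, all 36 pairs of members were positively correlated in log2 CPM, with r from 0.53 (*Eps8* and *Cdhr5*) to 0.98 and a median of 0.86. The pairs share libraries and groups, and r is given as a description. The mean of the members correlated with the epithelium score at r = 0.88 and Spearman's rho = 0.87, at r = 0.82 without the 2 libraries farthest in that score, and at r = 0.76 after centring on group means. With the B cell score r was -0.66, and -0.73 after centring. With the mean of 26 brush border enzymes and transporters r was 0.88.

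**Figure D3:**
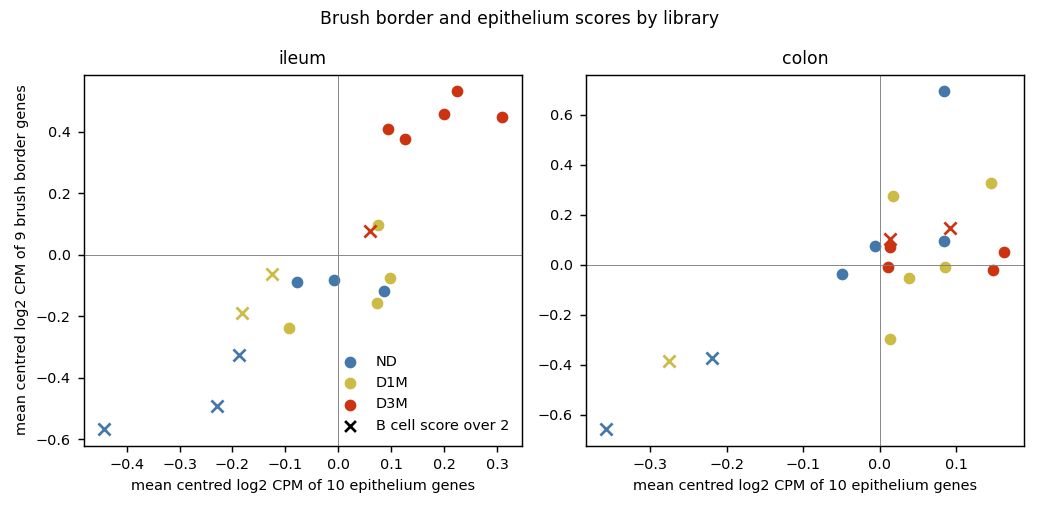
Mean centred log2 CPM of the 9 brush border transcripts (vertical axes) against that of 10 epithelium genes (horizontal axes), with 1 point per library and crosses for a B cell score over 2, in ileum and colon. In ileum 5 D3M libraries lie between 0.38 and 0.53 and the D3M cross, K3959, at 0.08. In colon the ND library of K4028 lies highest at 0.69.

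The transcripts most like the mean of the members over the 18 ileum libraries, members aside, were *Acsf2*, an acyl-CoA synthetase family member (r = 0.98), *Fblim1*, a filamin binding protein (r = 0.98), *Pdzk1*, an apical scaffold (r = 0.98), *Gpat3*, an acyltransferase of triglyceride synthesis (r = 0.98), and *Csnk1d*, a casein kinase (r = 0.98). Over the 18 colon libraries they were *RGD1306556* (r = 0.96), *Trim31* (r = 0.94), *Cideb* (r = 0.92), *Slc9a3r1*, the scaffold NHERF1 that binds ezrin (r = 0.92), and the creatine transporter *Slc6a8* (r = 0.92). The colon library of K4028, with *Fabp6* at 8706 CPM, had the highest mean of the members there, and r without it was not computed. In both tissues these genes were picked as the highest r among all genes tested, so r is a description.

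A wider list of 48 brush border and apical genes beyond the members was read by role, 45 of which were tested in ileum. Of these, 17 were higher and 1 was lower in D3M than in ND rats, 27 did not pass, and the median log2 fold change was 0.24, where 12.5% of all genes were called. Of 8 ERM proteins, kinases and scaffolds, 4 were higher: *Pdzk1* (log2 fold change 0.92), *Slc9a3r1* (0.74), the intestinal PDZ protein *Pdzd3* (0.42) and the ezrin partner *Clic5* (0.47). Of 3 relatives of *Eps8*, *Eps8l2* was higher (0.72, SE 0.13, FDR 0.00379). Of the nucleation and curvature genes, the actin nucleator *Cobl* (0.73) and the membrane bending *Pacsin2* (0.39) were higher and 2 did not pass. *Tmigd1*, an adhesion molecule of enterocytes, was higher (0.56, SE 0.18, FDR 0.0489).

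Among 9 further myosins 3 were higher, the nonmuscle myosin *Myh14* (0.56), the recycling motor *Myo5b* (0.58) and *Myo1e* (0.57), and 6 did not pass. Of 6 genes of apical vesicle traffic, *Rab8a* (0.41) and *Stx3* (0.60) were higher, both of which act in delivery of vesicles to the brush border. The terminal web, the actin and keratin mesh in which microvilli are rooted, had 4 higher genes of 7, among them the tight junction protein *Cgn* (0.54), the differentiation keratin *Krt20* (0.58) and the spectrin *Sptan1* (0.30), and 1 lower, *Krt18* (-0.66, SE 0.17, FDR 0.019). Of 6 other villin family members and bundlers 0 passed, with a median of -0.29. They differed in level and spread, so the median does not stand for each. *Espn*, at a mean of 219 CPM in ND rats, alone was positive (0.19, SE 0.09). *Lcp1* was at -0.54 with an SE of 0.68, and *Fscn1* had a mean of only 1.08 CPM in ND rats. Against D1M rats, where 2.22% of all genes were called and 1.93% were called higher, 4 of 45 were higher and 0 lower: *Pdzk1* (0.69, FDR 0.0231), *Cobl* (0.61, FDR 0.0498), *Myh14* (0.38, FDR 0.0492) and *Cgn* (0.34, FDR 0.0403). Of 26 enzymes and transporters carried by the brush border, 14 were higher and 2 lower against ND (12.5% of all genes called, 8.31% higher), and 9 higher and 0 lower against D1M rats (2.22% called, 1.93% higher).

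In colon, 0 of 9 members passed between D3M and ND rats (0.0155% of all genes called), between D1M and ND rats (0% called) or between D3M and D1M rats (0% called). None had an unadjusted p under 0.05 in these comparisons, and DESeq2 and voom also called 0. Over all genes, 602 had an unadjusted p under 0.05 in D1M against ND rats, where DESeq2 called 11. In D3M against D1M rats 682 did, where DESeq2 called 1. Log2 fold changes of D3M over ND ran from -0.15 (*Cdhr2*, SE 0.29) to 0.22 (*Myo7b*, SE 0.15), with a median of 0.08 against -0.01 over all genes. Those of D1M over ND ran from -0.09 to 0.11, and those of D3M over D1M from -0.09 to 0.29.

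Colonic *Vil1* was 523 to 1591 CPM in ND (median 972), 639 to 1394 CPM in D1M (median 896) and 863 to 1149 CPM in D3M rats (median 1022). The log2 fold change of D3M over ND was 0.10 (SE 0.27), and within 2 SE the fold lay between 0.741 and 1.55, against 1.35 to 1.95 in ileum. Colonic *Myo7b* was 429 to 788 CPM in ND (median 569), 413 to 701 CPM in D1M (median 553) and 643 to 768 CPM in D3M rats (median 704). Its fold of D3M over ND lay between 0.945 and 1.44 within 2 SE. ND and D1M rats spread more widely than D3M rats for both transcripts, and all groups overlapped.

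For all 9 members the highest ND colon library was that of K4028, with *Fabp6* at 8706 CPM, and the lowest that of K4048, with a B cell score of 4.68. *Pls1* stood at 833 CPM in K4028 and at 169 to 335 CPM in the other 5 ND rats. Without the colon library of K4028, 9 of 9 log2 fold changes of D3M over ND were positive with a median of 0.20, and without the 5 libraries with a B cell score above 2, 9 of 9 were negative with a median of -0.35, with 0 members passing in either. Within flow cell 2 (4 D3M rats, 2 ND rats) 9 of 9 members were higher in D3M, by a median of 0.61, and within flow cell 3 (2 rats each) 9 of 9 were lower, with a median difference of -0.35. Without K4047 or K4048, both ND rats with a high B cell score, 7 of 9 were negative, with medians of -0.08 and -0.13. The direction of the colonic differences depended on which of these libraries were included.

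**Figure D4:**
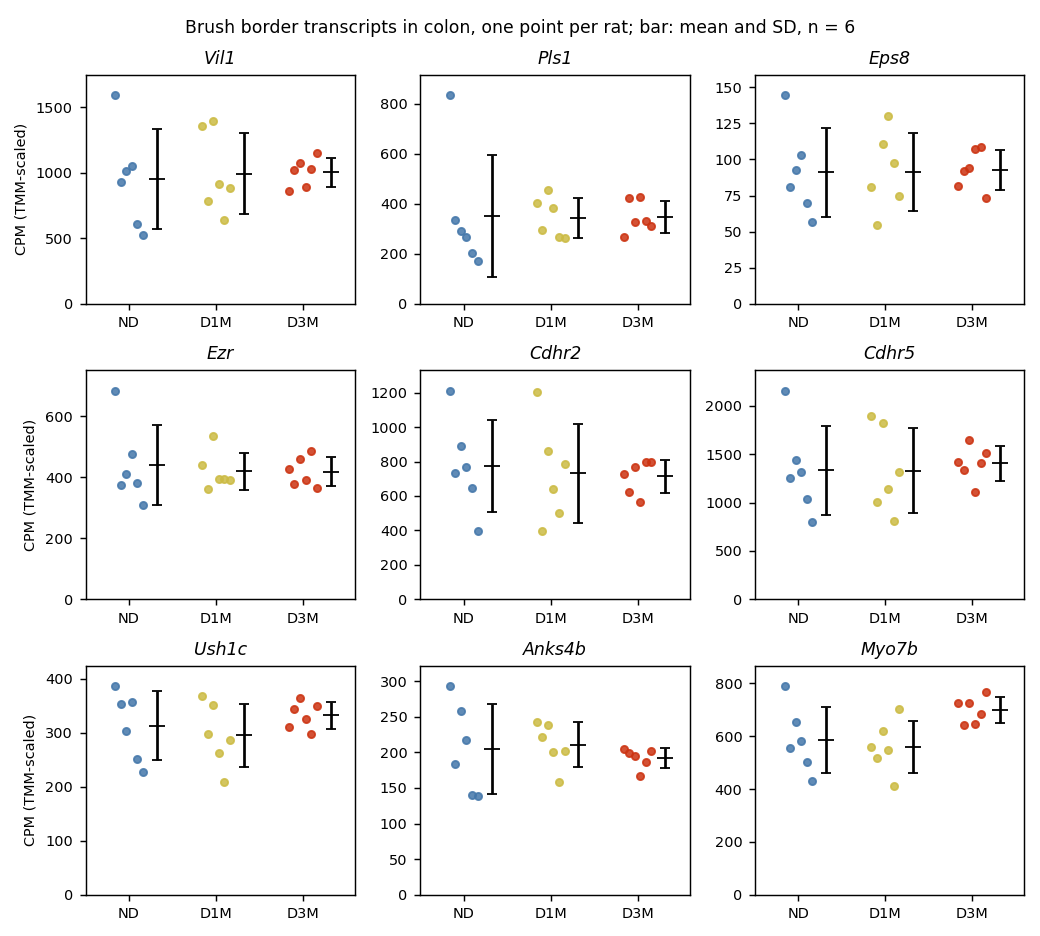
Colonic levels of the 9 transcripts in CPM (vertical axes, each from 0), with 1 point per rat and a bar at the mean ± SD (n = 6). The 3 groups overlap in every panel, and the highest *Pls1* point, at 833 CPM, is the ND library of K4028.

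All 9 members were lower in colon than in ileum over the 36 libraries, with group and flow cell in the edgeR model, where 73.2% of all genes were called in either direction and 34.5% were called lower. Log2 fold changes of colon over ileum ran from -2.08 (*Pls1*, SE 0.14) to -0.82 (*Ush1c*, SE 0.07), with a median of -1.42 against 0.03 over all genes, and FDR values were 1.65e-09 or less. In order of size they were *Pls1*, *Vil1* (-1.81), *Cdhr2* (-1.78), *Cdhr5* (-1.66), *Ezr* (-1.42), *Anks4b* (-1.27), *Myo7b* (-1.20), *Eps8* (-0.99) and *Ush1c*. Intervals of 2 SE overlapped between all neighbours in this order, and no test was made between genes. By role, the median was -1.81 for the actin core, -1.42 for *Ezr* and -1.27 for the adhesion complex.

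On a scale common to both tissues, *Vil1* was 2095 to 5093 CPM in ileum (median 3139) and 501 to 1498 CPM in colon (median 908). *Ush1c* was 390 to 722 CPM in ileum (median 521) and 194 to 363 CPM in colon (median 301). Within a rat, colon lay below ileum in 18 of 18 rats for 7 members and in 17 of 18 for *Eps8* and *Ezr*, the exception being K4028 for both. *Ezr* was 643 CPM in the colon and 636 CPM in the ileum of K4028. The colon library of K4028 and the ileum library of K4040 held the most *Fabp6* and *Car1* of the other tissue. Without them, 9 of 9 members were lower in colon with a median of -1.50. The ileum library of P762, with *Car1* at 1345 CPM, was kept in that fit. With the rat as a block 9 of 9 were lower with a median of -1.42.

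**Figure D5:**
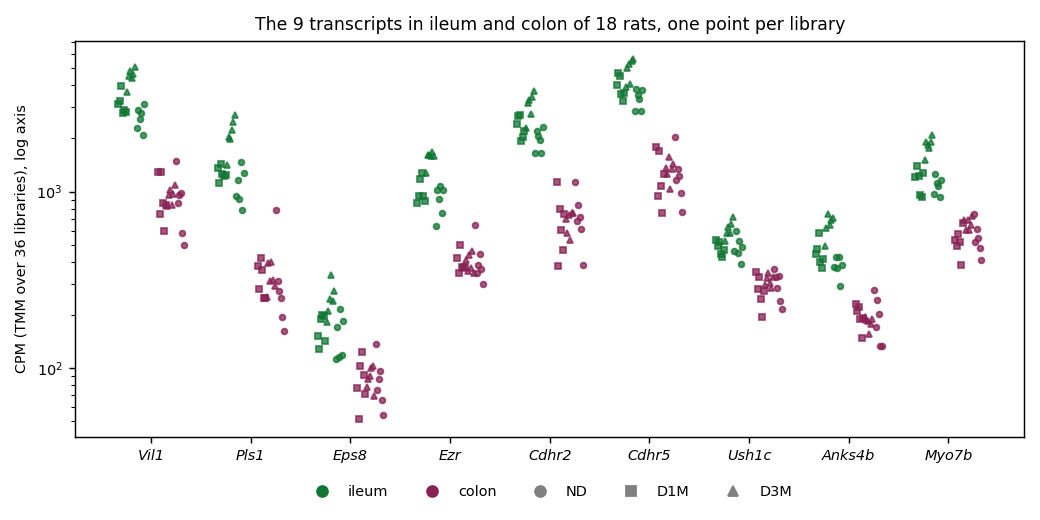
CPM of the 9 transcripts on a log axis, scaled over all 36 libraries, with 1 point per library coloured by tissue and shaped by group. *Vil1* spans 2095 to 5093 CPM in ileum and 501 to 1498 CPM in colon, and the overlaps of *Pls1*, *Eps8* and *Ezr* between tissues include the colon library of K4028.

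Whether the tissues differed in the group contrast was tested in a model of both tissues. For D3M over ND rats, 0 of 9 members passed, where 1.56% of all genes were called. All 9 differences of colon minus ileum were negative, from -0.86 (*Cdhr2*) to -0.29 (*Eps8*). An unadjusted p under 0.05 was held by 6 of them, and by 2303 of all 13697 genes tested (16.8%). The smallest FDR values were 0.0708 for *Anks4b* (-0.82, SE 0.24), 0.0793 for *Ezr* (-0.79, SE 0.24) and 0.0875 for *Myo7b* (-0.64, SE 0.20). Without a flow cell term *Anks4b* (FDR 0.0139) and *Ezr* (FDR 0.0159) passed, and with the rat as a block the smallest FDR among the members was 0.27 and 0 of 13697 genes were called. For D3M over D1M rats 0 of 9 passed, 0% of all genes were called, and 4 members among 1138 genes had an unadjusted p under 0.05. A difference between tissues in the response was not shown for any member.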

How the data were processed

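RNA of distal ileum and proximal colon was made into polyadenylated, stranded libraries by the authors, aligned with STAR to rn6 and quantified with SeqMonk. Raw counts of 24773 genes in 36 libraries were deposited. The strand setting of the counting and tool versions are not given in the sources used here. Beside them, 36 columns of standard deviations hold 0 and were not used, and a deposited table of log2 scaled counts was not used.

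Each tissue was fitted in edgeR 4.0.16 (R 4.3.3, limma 3.58.1) with filterByExpr, TMM, 3 groups and 3 flow cells, robust quasi-likelihood tests with the legacy method, and Benjamini-Hochberg FDR over all genes tested. The SE is the log2 fold change over the square root of F. Scores are means of log2 CPM (prior count 2) centred within a tissue. Colon was compared with ileum with group and flow cell as terms. Biological variation between rats had a median coefficient of 0.186 (ileum) and 0.192 (colon). Each rat gave both tissues, so the rat number pairs libraries. The correlation of deviations from group means between its libraries ranged from -0.52 to 0.76 (median -0.03). Scripts were tested on simulated data. Figures were drawn with matplotlib 3.10.9.

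The 10 members were all named, as were up to 4 genes per role of the wider list with the smallest p among those at FDR < 0.05 in ileum between D3M and ND rats, every gene of it at FDR < 0.05 between D3M and D1M rats, and the 5 genes most correlated with the mean of the members in each tissue. *Espn*, *Lcp1* and *Fscn1* were named in addition, to show how the bundlers differed, and *Ms4a1* and *Cr2* for their absence from some ileum libraries. The members and lists were chosen with earlier results of these data known. Alternatives were other scalings, filters, DESeq2 1.42.0, voom with quality weights, edgeR 4's method, flow cell and score terms, libraries left out and the rat as a block.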

Additional observations from a re-analysis of the deposited data

Results flagged for a closer look

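In 54 groups of 6 libraries (9 transcripts, 2 tissues, 3 groups), 2 held a library far from the others, judged by its gap to the nearest library relative to the range of the group. Chance gives this in about 1 in 20 groups. *Pls1* stood at 833 CPM in the colon of ND rat K4028, against 335 CPM in the next, a gap of 0.749 of the range. This library also held *Fabp6* at 8706 CPM. *Ezr* stood at 1214 CPM in the ileum library of D3M rat K3959, against 1417 CPM in the next, a gap of 0.699 of the range. Its B cell score was 2.89. What set these libraries apart was not tested.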

How the results depend on the processing

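Limits first: groups of 6 rats, unequal flow cells, whole tissue and ND rats younger than diabetic rats. In ileum between D3M and ND rats the 7 members called became 2 with only those groups in the model, 1 with the epithelium score as covariate and 2 without the libraries with a B cell score above 2, an alternative chosen after seeing the data. They were 6 to 8 when 1 library was left out. The median of 0.67 became 0.41 with the epithelium score. Between D3M and D1M rats the 5 called became 3 with no filter, 8 in DESeq2, 2 without flow cell 2 and 0 with the epithelium score, with the median at 0.30, and 0 to 8 when 1 library was left out. In colon the median between D3M and ND rats, 0.08, became -0.40 without flow cell 2, -0.25 with the epithelium score and -0.35 without the libraries with a high B cell score, with 0 members called in each. The difference between tissues in D3M over ND, with 0 members called, gave 2 without a flow cell term. The replicate block, with the rat as block, called 9 members lower in colon and 0 in either difference between tissues, and changed no call of a member. Over all genes, calls between D3M and ND ileum numbered 1632, and 185 with only those groups, 201 with the epithelium score, 130 without the libraries with a high B cell score, 561 without flow cell 2, 3007 without a flow cell term and 675 to 2437 when 1 library was left out. Between D3M and D1M ileum they numbered 289, and 189 with no filter, 997 in DESeq2, 753 in voom, 130 without flow cell 2, 16 with the epithelium score and 6 to 761 when 1 library was left out. Between D3M and ND colon they numbered 2, and 73 in DESeq2, 7 in voom and 315 with only those groups. For the difference between tissues in D3M over ND they numbered 214, and 0 with the rat as block, 37 without the ileum of K4040 and the colon of K4028 and 761 without a flow cell term. The cause of these changes was not tested. No called member changed direction in any alternative.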
